A study of Mus musculus with 10 samples.

Results

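Genes of stratified squamous epithelium, 10 in number, were followed across AOM/DSS colon tumors of mice: Trp63, the master transcription factor of that epithelium, the desmosome genes Dsg3, Dsc3, Pkp1 and Perp, the envelope genes Sprr1a and Ivl, and Serpinb5, Lypd3 and Sfn. They were chosen by name, with their levels in these tumors already known, so their values are given as a description, and the calls counted over them support nothing. Of the 10 names, 9 were among the 16875 gene names of the expression table. Ivl was not in the table and was not analysed here. No value of the 9 genes was shared with another name, whereas 2419 names of the table carried the values of another gene.

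The study asked what Wnt ligands secreted by the tumor epithelium do for established tumors, and compared 5 control tumors with 5 Villin-Wls cKO tumors by sequencing of messenger RNA. All mice were C57Bl6 animals of 6 to 10 weeks at the start, all were Wls flox/flox, and all received azoxymethane (AOM, a mutagen) and 3 cycles of 2% dextran sulfate sodium (DSS, which inflames the colon). Villin-Wls cKO mice also carried Villin-Cre ERT2, so that Wls, which is needed for Wnt secretion, was deleted after tamoxifen by a Cre under the Villin promoter, which is active in intestinal epithelial cells and leaves Wls intact in stroma and immune cells. Tamoxifen was given in 5 injections of 80 mg/kg, the first 30 days before collection, and control tumors are described as having had no tamoxifen unless stated otherwise. The number of mice behind the tumors is not given, so n counts tumors and every p-value measures the spread between tumors.

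Levels are FPKM, sequenced fragments scaled to transcript length and to the mapped reads of the tumor, so that genes of different length can be set side by side. Differences are given as log2(FPKM + 1), Villin-Wls cKO minus control, and understate the change of genes near 0. Levels of Wls spanned 61.3 to 79.9 FPKM in controls, 11.6 and 11.7 FPKM in Villin-Wls cKO tumors 2 and 3, and between 2.03 and 3.61 FPKM in tumors 1, 4 and 5. Xist, transcribed from the inactive X chromosome of females, ranged from 439 to 701 FPKM in Villin-Wls cKO tumors and was at most 0.420 FPKM in controls, while the Y-linked Eif2s3y was at most 0.138 FPKM against 30.4 to 46.6 FPKM. Deletion of Wls, tamoxifen and sex therefore cannot be told apart in this comparison. Summed FPKM per tumor lay between 1207683 and 1533885, and the number of reads behind a value is unknown. Genes that mark columnar intestinal epithelium were present in all tumors: all 12 reached 1 FPKM, and the sum over 11 of them was 4555 to 6341 FPKM in controls, 6336 to 8995 FPKM in Villin-Wls cKO tumors 1, 4 and 5, and 5859 and 7284 FPKM in tumors 2 and 3.

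Stratified squamous epithelium lines skin, mouth and oesophagus and is built from a basal layer, in which the transcription factor p63 maintains the progenitors, and from layers that differentiate towards the surface. Its cells are held together by desmosomes, in which desmosomal cadherins join neighbouring cells and plakophilins tie them to keratin filaments. Towards the surface, small proline-rich proteins and involucrin are cross-linked by transglutaminases into the cornified envelope. The healthy colon is lined by a single columnar layer, whose desmosomes use other cadherin paralogs.

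The 9 genes did not share a single pattern. Trp63, Lypd3, Dsg3 and Dsc3 were high in Villin-Wls cKO tumors 2 and 3 only, Pkp1 was raised in the same pair over an appreciable level elsewhere, and Perp, Sfn, Sprr1a and Serpinb5 were abundant in all 10 tumors. The 2 highest of the 10 values were those of Villin-Wls cKO tumors 2 and 3 for 8 of the 9 genes, against 6.67% of the 16757 genes tested, and the exception was Serpinb5. For 4 of them the lower value of the pair was at least 2 times the highest of the other 8 tumors, which held for 0.901% of genes tested. The genes had been chosen with this pattern known, and nothing is read from these shares.

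**Figure D1:**
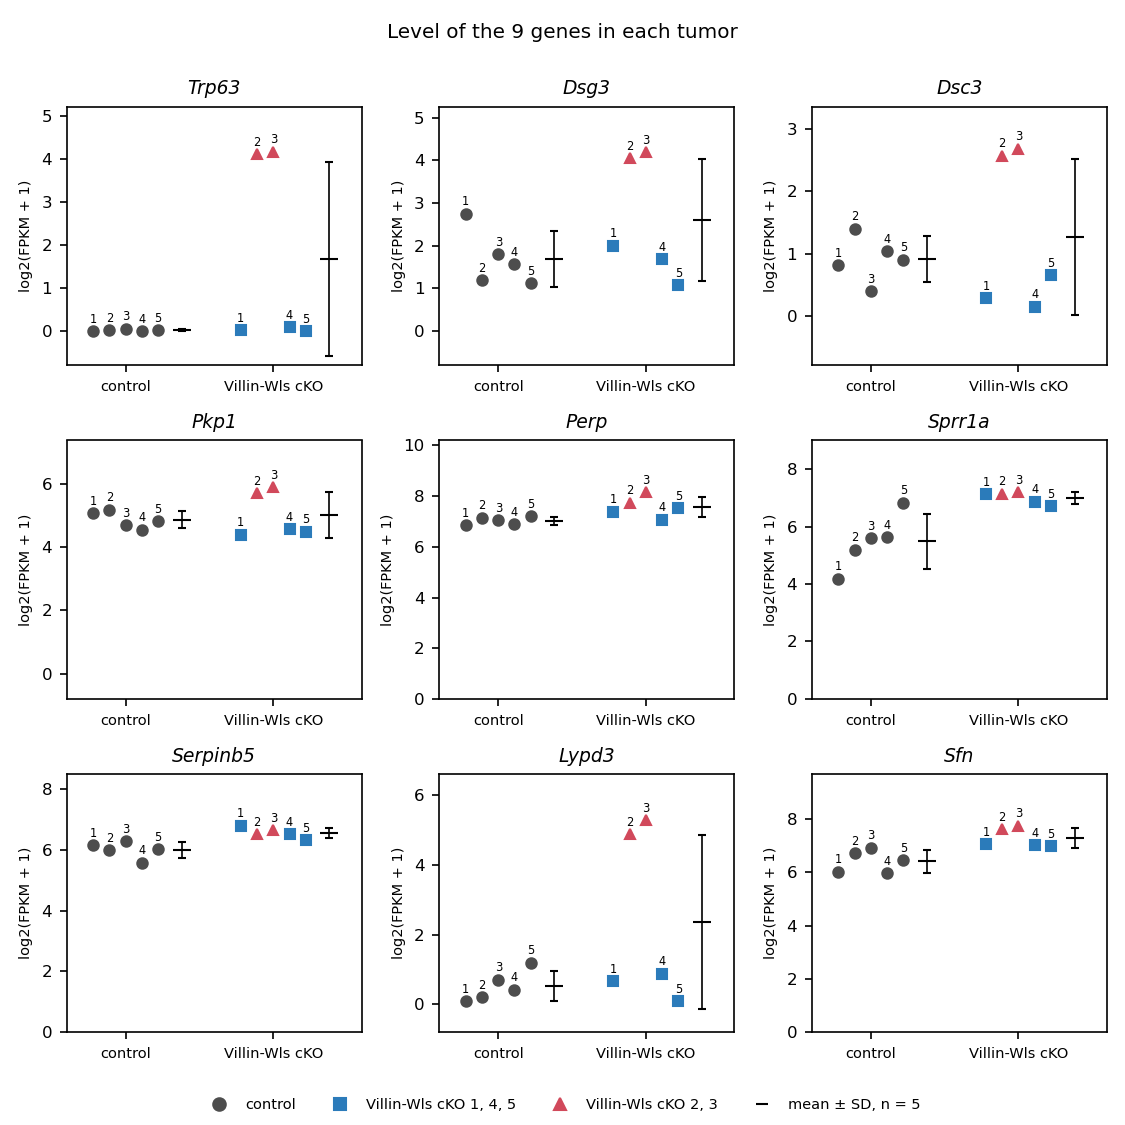
Level of each of the 9 genes as log2(FPKM + 1) in the 5 control tumors (circles) and in Villin-Wls cKO tumors 1, 4 and 5 (squares) and 2 and 3 (triangles), with tumor numbers above the points and the mean ± SD of each group of 5. Trp63, Dsg3, Dsc3 and Lypd3 stand apart in tumors 2 and 3 alone, whereas Serpinb5 and Sfn are higher in all 5 Villin-Wls cKO tumors than in all 5 controls.

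Trp63 lies on chromosome 16 from 25683763 to 25892102 on the plus strand (GRCm38, GENCODE M21), where the annotated genes Gm24928 and Gm27005 overlap it. On the log2(FPKM + 1) scale its levels were 0, 0.017, 0.051, 0 and 0.018 in control tumors 1 to 5, and 0.019, 4.11, 4.17, 0.091 and 0 in Villin-Wls cKO tumors 1 to 5. In FPKM, tumors 2 and 3 held 16.3 and 17.0, and no other tumor exceeded 0.0649. Trp63 was thus listed at 0 in 3 tumors and near 0 in 5 more, in both groups, and the pair stood apart from all of them. The group means were 0.0121 ± 0.0147 FPKM (SD, n = 5) in controls and 6.66 ± 9.09 FPKM (SD, n = 5) in Villin-Wls cKO tumors, where the SD is larger than the mean. The difference of the log2 levels was 1.66 (SE 0.88) over all tumors and 0.019 when only Villin-Wls cKO tumors 1, 4 and 5 were set against controls. Its relative Trp53, the p53 tumor suppressor, was 64.6 ± 3.20 FPKM in controls and 57.9 ± 5.49 FPKM in Villin-Wls cKO tumors (limma adjusted p = 0.203). Trp63 made up 21.5% and 25.0% of the summed FPKM of Trp53 and Trp63 in tumors 2 and 3, and at most 0.0982% in the other 8. In a bulk tumor sample, more cells that express a gene and more RNA of it per cell cannot be told apart.

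Dsg3, a desmosomal cadherin of basal squamous layers, lies on chromosome 18 from 20510274 to 20547459 on the plus strand. Its log2(FPKM + 1) levels were 2.75, 1.20, 1.80, 1.57 and 1.12 in control tumors 1 to 5, and 2.00, 4.05, 4.20, 1.69 and 1.07 in Villin-Wls cKO tumors 1 to 5. Unlike Trp63, Dsg3 was measurable in every tumor, from 1.10 to 5.74 FPKM outside the pair, and the pair held 15.5 and 17.3 FPKM. The lower of these was 2.71 times the highest other value, that of control tumor 1. The difference between the groups was 0.91 (SE 0.62) on the log2 scale, and -0.10 without tumors 2 and 3.

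Dsc3, the partner desmosomal cadherin of the desmocollin type, lies on chromosome 18 from 19960930 to 20002351 on the minus strand. In log2(FPKM + 1), Dsc3 was at 0.82, 1.40, 0.40, 1.04 and 0.90 in control tumors 1 to 5, and 0.28, 2.58, 2.69, 0.14 and 0.65 in Villin-Wls cKO tumors 1 to 5. Of the 4 desmosome genes it was the lowest in the pair, at 4.96 and 5.44 FPKM, against at most 1.64 FPKM elsewhere. Villin-Wls cKO tumors 1 and 4 had the lowest values of all 10 tumors, 0.215 and 0.105 FPKM, and tumor 5 lay within the range of the controls. The difference was 0.36 (SE 0.52) over all tumors and -0.55 without tumors 2 and 3.

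Pkp1, a plakophilin, lies on chromosome 1 from 135871395 to 135919207 on the minus strand, where the annotated gene Gm36938 overlaps it. Its log2(FPKM + 1) levels were 5.07, 5.19, 4.70, 4.56 and 4.82 in control tumors 1 to 5, and 4.39, 5.71, 5.90, 4.56 and 4.49 in Villin-Wls cKO tumors 1 to 5. Pkp1 was 22.6 to 35.5 FPKM in controls, in which Trp63 was at most 0.0361 FPKM. Tumors 2 and 3 exceeded all others at 51.3 and 58.7 FPKM, and tumors 1, 4 and 5 lay between 20.0 and 22.6 FPKM, at or under the lower end of the controls. The difference was 0.14 (SE 0.31) over all tumors and -0.39 without the pair.

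Perp, a tetraspan membrane protein of desmosomes that both p53 and p63 are known to induce, lies on chromosome 10 from 18845020 to 18857073 on the plus strand. Perp stood, in log2(FPKM + 1), at 6.86, 7.15, 7.06, 6.89 and 7.22 in control tumors 1 to 5, and 7.39, 7.75, 8.16, 7.07 and 7.53 in Villin-Wls cKO tumors 1 to 5. It was the most abundant of the 9 genes in control tumors, at 131 ± 14.3 FPKM (SD, n = 5) against 197 ± 57.0 FPKM (SD, n = 5) in Villin-Wls cKO tumors. The groups overlapped through tumor 4, at 134 FPKM, and the pair held the highest values at 214 and 284 FPKM. The difference was 0.54 (SE 0.18) over all tumors and 0.30 without the pair.

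Shares within a family set each squamous paralog against its relatives in the same tumor. Dsg3 made up 13.8% and 13.99% of the summed FPKM of Dsg2 and Dsg3 in tumors 2 and 3, against 1.17% to 4.85% in controls and 0.907% to 2.16% in tumors 1, 4 and 5. Dsc3 made up 6.72% and 6.04% of Dsc2 and Dsc3 in the pair, and 0.150% to 3.11% in the other 8 tumors. Pkp1 made up 23.7% and 24.3% of Pkp1, Pkp2 and Pkp3 in the pair, and 10.9% to 19.3% in the others. Even in the pair, Dsg2, Dsc2, and Pkp2 and Pkp3 together held most of the summed FPKM of these families. Perp did not follow the pair in this measure, since its share among Perp and the 4 genes of the PMP22 family was 32.8% in tumor 2, under the 37.0% of tumor 4, and 44.5% in tumor 3.

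**Figure D2:**
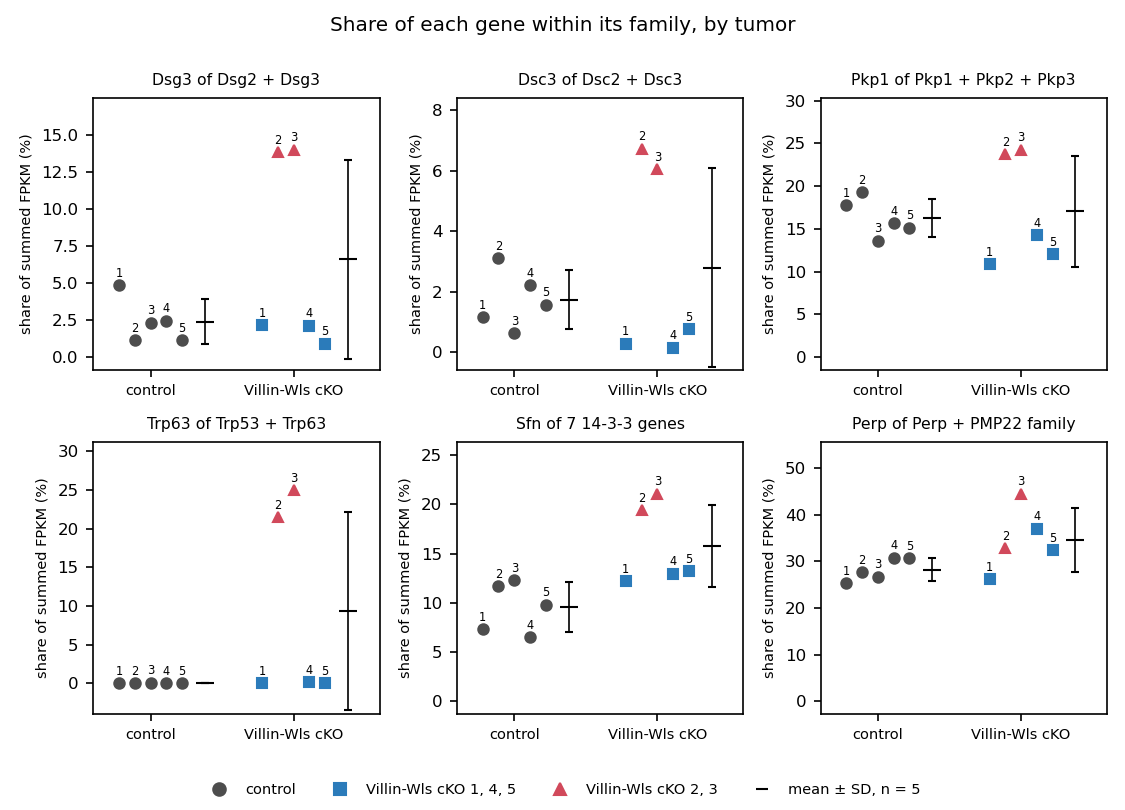
Share of each gene in the summed FPKM of its family (vertical axis, percent) for 5 control tumors (circles), Villin-Wls cKO tumors 1, 4 and 5 (squares) and 2 and 3 (triangles), with the mean ± SD of each group of 5. The shares of Dsg3, Dsc3, Pkp1, Trp63 and Sfn are highest in tumors 2 and 3, and that of Perp in tumor 2 lies under that of tumor 4.

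Other desmosome and cadherin-catenin genes came from a list of 16, of which 12 were tested. The test was limma on log2(FPKM + 1) with Benjamini-Hochberg adjustment over all genes, which called 10.9% of the 16757 genes, 1026 higher and 796 lower. Rescaling to the same FPKM sum turned that split to 1373 higher and 410 lower, and quantile normalization turned it to 890 higher and 1124 lower. By this test 2 of the 12 genes rose and 1 fell, where 6.12% and 4.75% of all genes did, and their median difference was 0.086, against 0.0073 over all genes tested. Dsc2, the desmocollin of simple epithelium, rose from 53.6 ± 7.04 to 74.7 ± 6.34 FPKM (log2 difference 0.48, SE 0.094, limma adjusted p = 0.0102). Pkp4, a plakophilin relative, rose from 22.4 ± 1.40 to 33.2 ± 4.89 FPKM (0.54, SE 0.096, limma adjusted p = 0.00592). Ctnnb1, which encodes the adhesion and Wnt signalling protein beta-catenin, fell by 0.31 on the log2 scale (SE 0.076, limma adjusted p = 0.0249), which passed in 14 of 21 alternative settings. Without the pair 2 of the 12 rose and 0 fell, where 3.95% and 2.69% of all genes did. Dsg2, Dsp, Jup, Pkp2, Pkp3 and Cdh1, the core of desmosomes and adherens junctions in the colon, did not pass, with limma adjusted p between 0.399 and 0.971. Among these 12 genes, 3 had their 2 highest values in tumors 2 and 3, and Cdh3, the cadherin of basal layers, was one of them at 2.76 and 2.57 FPKM against at most 1.24 FPKM.

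Sprr1a, a small proline-rich precursor of the envelope, lies on chromosome 3 from 92483952 to 92485895 on the minus strand. For Sprr1a, the log2(FPKM + 1) levels were 4.18, 5.19, 5.60, 5.64 and 6.83 in control tumors 1 to 5, and 7.12, 7.14, 7.19, 6.87 and 6.71 in Villin-Wls cKO tumors 1 to 5. The control tumors were spread from 17.2 to 113 FPKM and the Villin-Wls cKO tumors from 104 to 145 FPKM, so only control tumor 5 reached into the range of the other group. The pair, at 140 and 145 FPKM, hardly differed from tumor 1 at 138 FPKM, and the mean log2 level of the pair was only 0.27 above that of tumors 1, 4 and 5. The difference between the groups, 1.52 (SE 0.38), was 1.41 without tumors 2 and 3.

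Serpinb5 (maspin, a serpin without known protease inhibition) lies on chromosome 1 from 106861173 to 106883348 on the plus strand. Its log2(FPKM + 1) levels were 6.14, 5.99, 6.27, 5.58 and 6.02 in control tumors 1 to 5, and 6.79, 6.50, 6.64, 6.50 and 6.31 in Villin-Wls cKO tumors 1 to 5. In FPKM this was 63.8 ± 11.0 (SD, n = 5) against 93.2 ± 11.6 (SD, n = 5). All 5 Villin-Wls cKO tumors were above all 5 controls, the highest was tumor 1 at 109 FPKM, and the pair did not stand apart, at 89.7 and 98.7 FPKM. The difference was 0.55 (SE 0.13) over all tumors and 0.53 without the pair.

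Lypd3 (C4.4A, a membrane-anchored protein of the Ly6/uPAR family found in suprabasal squamous cells) lies on chromosome 7 from 24636550 to 24641118 on the plus strand, where Gm26550 overlaps it. Levels of Lypd3 in log2(FPKM + 1) were 0.086, 0.22, 0.71, 0.43 and 1.19 in control tumors 1 to 5, and 0.68, 4.88, 5.28, 0.88 and 0.099 in Villin-Wls cKO tumors 1 to 5. The pair held 28.5 and 37.8 FPKM and the other 8 tumors at most 1.29 FPKM, so the lower of the pair was 22.1 times the highest other. The difference was 1.84 (SE 1.00) over all tumors and 0.023 without the pair.

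Sfn (14-3-3 sigma, the epithelial member of the 14-3-3 adaptor proteins and a p53 target) lies on chromosome 4 from 133600556 to 133602168 on the minus strand. Its log2(FPKM + 1) levels were 6.01, 6.70, 6.91, 5.95 and 6.44 in control tumors 1 to 5, and 7.06, 7.61, 7.74, 7.01 and 6.97 in Villin-Wls cKO tumors 1 to 5. Sfn formed 3 levels: 60.8 to 119 FPKM in controls, 124 to 132 FPKM in tumors 1, 4 and 5, and 194 and 212 FPKM in the pair. The groups did not overlap, although tumor 5 lay close to control tumor 3. The difference was 0.87 (SE 0.22) over all tumors and 0.61 without the pair. Sfn supplied 19.4% and 21.1% of the summed FPKM of 7 14-3-3 genes in the pair and 6.55% to 13.2% in the other tumors.

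Promoter windows from RefSeq (GRCm38.p6) covered 5 of the 10 genes, of which 4 were in the table. The 250 bases before the start of Sprr1a (chr3:92485882-92486131, minus strand), Serpinb5 (chr1:106860925-106861174, plus strand) and Lypd3 (chr7:24636320-24636569, plus strand) are shown 5′ to 3′ on the gene's strand. Levels of Sprr1a and Serpinb5 in tumors 2 and 3 were close to those in tumor 1, and Lypd3 was high in the pair alone. Capitals mark TGANTCA (the AP-1 element, here with any central base) and TATAAA (the TATA box), both searched on both strands.
Sprr1a: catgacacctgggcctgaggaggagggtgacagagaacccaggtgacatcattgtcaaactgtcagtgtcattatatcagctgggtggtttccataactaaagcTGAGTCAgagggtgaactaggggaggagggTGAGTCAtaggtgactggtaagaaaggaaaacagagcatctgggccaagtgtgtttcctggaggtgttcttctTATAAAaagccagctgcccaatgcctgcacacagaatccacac
Serpinb5: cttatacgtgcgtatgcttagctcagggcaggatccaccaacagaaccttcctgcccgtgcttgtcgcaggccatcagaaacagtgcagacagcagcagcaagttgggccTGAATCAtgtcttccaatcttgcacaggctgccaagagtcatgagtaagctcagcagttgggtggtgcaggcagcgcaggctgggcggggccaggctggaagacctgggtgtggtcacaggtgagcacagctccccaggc
Lypd3: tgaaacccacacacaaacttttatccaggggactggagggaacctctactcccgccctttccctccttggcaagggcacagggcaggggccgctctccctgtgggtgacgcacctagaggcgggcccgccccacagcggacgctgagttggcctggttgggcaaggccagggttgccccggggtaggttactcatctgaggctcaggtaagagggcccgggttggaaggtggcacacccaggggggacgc
Sprr1a held 2 AP-1 elements, with their first bases 146 and 116 bases before the start, and a TATA box at 43. Serpinb5 held 1 match to TGANTCA at 140, which reads TGAATCA, whereas both matches in Sprr1a read TGAGTCA. Neither Lypd3 nor Sfn (chr4:133602169-133602418, minus strand) held either motif. Among 32851 windows of the same length, 6.75% held at least 1 TGANTCA, 0.338% at least 2, and 12.4% a TATAAA. The half-site of the p53 family was in 7.13% of windows and in none of these 4. A match or its absence describes these letters only.

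Over the 9 genes, 3 were called higher by limma (Sprr1a, Serpinb5 and Sfn) and 0 lower, where 6.12% of all genes tested were called higher and 4.75% lower. Serpinb5 and Sfn, 2 of the 9, were higher without overlap of the groups and 0 were lower, where 5.33% and 4.76% of all genes were, 10.1% in either direction. In the same 2 genes tumors 1, 4 and 5 all exceeded every control, as in 8.87% of genes, and in 0 of the 9 were they all below, as in 8.29%. Without tumors 2 and 3, 7 of the 9 were tested, 6 of them at an unadjusted limma p under 0.05. Of these 7, 0 were called, where 3.95% of all genes rose and 2.69% fell. Sprr1a, Serpinb5 and Sfn thus lost their calls in that fit, which holds fewer tumors. The genes had been picked from this contrast, so nothing is read from these counts. Trp63 and Lypd3 passed the filter on low levels only through tumors 2 and 3. Tumor 3 exceeded tumor 2 for all 9 genes, by 1.04 to 1.33 times, whereas 52.2% of all genes tested were higher in tumor 3.

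The profiles of the genes across tumors were compared by the root mean square difference of the centred log2 levels. Perp and Sfn were the closest pair, at 0.29, followed by Perp and Serpinb5, at 0.31. Trp63 was closest to Lypd3, at 0.37, and Serpinb5 and Lypd3 were the farthest apart, at 1.72. The split thus ran across the roles, since the desmosome genes Dsg3 and Perp were 0.89 apart. On the log2(FPKM + 1) scale, tumors 2 and 3 exceeded tumors 1, 4 and 5 by 4.53 for Lypd3, 4.10 for Trp63, 2.53 for Dsg3, 2.27 for Dsc3, 1.32 for Pkp1, 0.66 for Sfn, 0.62 for Perp, 0.27 for Sprr1a and 0.039 for Serpinb5. The order was another in FPKM, where the pair exceeded the mean of tumors 1, 4 and 5 by 87.6 for Perp, 75.1 for Sfn, 33.6 for Pkp1, 32.7 for Lypd3, 23.3 for Sprr1a, 16.6 for Trp63, 14.3 for Dsg3, 4.91 for Dsc3 and 1.74 for Serpinb5.

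**Figure D3:**
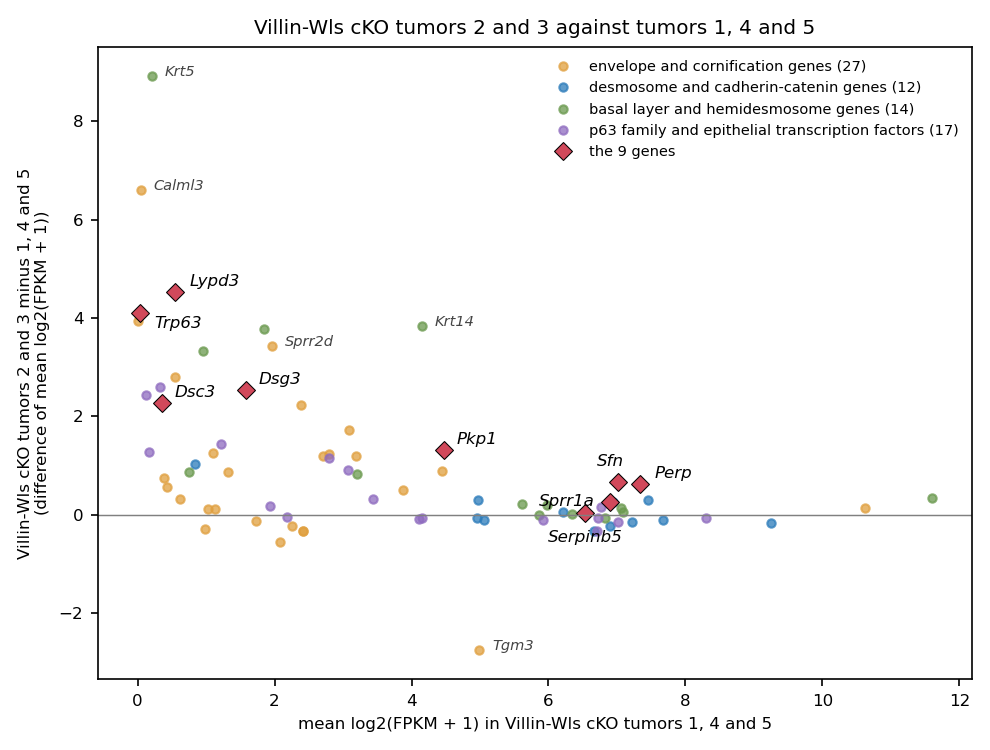
Mean log2(FPKM + 1) in Villin-Wls cKO tumors 1, 4 and 5 (horizontal axis) against the difference of tumors 2 and 3 from them (vertical axis) for the 9 genes (diamonds) and for listed transcription factor, desmosome, envelope and basal layer genes (dots, with the number of genes of each list). Trp63 and Lypd3 lie at the upper left at 4.10 and 4.53, Serpinb5 and Sprr1a near the line at 0.039 and 0.27, and Tgm3 lies below it.

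Other envelope and cornification genes came from a list of 41, of which 27 were in the table and 26 were tested. Of these, 5 rose and 0 fell, the median difference was 0.94, and 13 (50%) had their 2 highest values in tumors 2 and 3. Over all genes tested, the shares were 6.12% higher, 4.75% lower and 6.67% with the 2 highest values in that pair, and the counts of the lists that follow stand beside the same shares. Calml3, Spink5, Krtdap, Cnfn and Tchh passed the filter on low levels only through the pair, so they were bound to be high there. Sprr2i, 1 of the 5 that rose, also did not pass it without the pair, although tumors 1, 4 and 5 held 0.923 to 1.28 FPKM of it. In the lists that follow, Sox15, Krt5, Lypd2 and Serpinb2 likewise passed it only through the pair. The lists were chosen with these data known, and nothing is read from their counts. All 5 that rose were small proline-rich genes of the Sprr2 cluster, close relatives of Sprr1a, among which reads can be split uncertainly. Sprr2a3 rose from 384 ± 203 to 1741 ± 714 FPKM (log2 difference 2.24, SE 0.37, limma adjusted p = 0.00427), and Sprr2h from 2.99 ± 2.89 to 28.9 ± 11.7 FPKM (3.12, SE 0.50, limma adjusted p = 0.0035). At levels of at most 4.71 FPKM, Sprr2g rose by 1.41, Sprr2i by 0.90 and Sprr2f by 1.03 (limma adjusted p = 0.00736, 0.00211 and 0.0421). Sprr2f passed in only 10 of 21 alternative settings. Without tumors 2 and 3, 3 of 20 tested envelope genes rose and 0 fell, where 3.95% and 2.69% of all genes did. Sprr2h was higher in each of the Villin-Wls cKO tumors, at 12.2 to 43.8 FPKM, than in any control, at 0.410 to 7.24 FPKM, and Sprr2a3 likewise.

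Another set of envelope genes was seen in the pair alone and did not pass the test over 5 tumors. Calml3, a calmodulin-like protein of keratinocytes, was 74.3 and 132 FPKM in tumors 2 and 3 and at most 0.328 FPKM elsewhere. Spink5, an inhibitor of the proteases of skin shedding, was 13.2 and 19.4 FPKM against at most 0.0351 FPKM. Krtdap was listed at 0 in the other 8 tumors and was 5.20 and 37.2 FPKM in the pair. All 3 encode proteins of differentiating keratinocytes. Sprr2d was 44.2 and 38.1 FPKM in the pair, against at most 1.51 FPKM in controls and 1.70 to 3.90 FPKM in tumors 1, 4 and 5 (limma adjusted p = 0.06). The transglutaminases that cross-link the envelope diverged. Tgm1 was 22.1 and 25.2 FPKM in the pair against at most 7.24 FPKM, whereas Tgm3 was 1.30 and 8.70 FPKM against 26.4 to 35.7 FPKM in tumors 1, 4 and 5 and 6.72 to 23.3 FPKM in controls, a range that held tumor 3 but not tumor 2. Lor, which encodes the main envelope protein of skin, was at most 2.36 FPKM in every tumor.

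**Figure D4:**
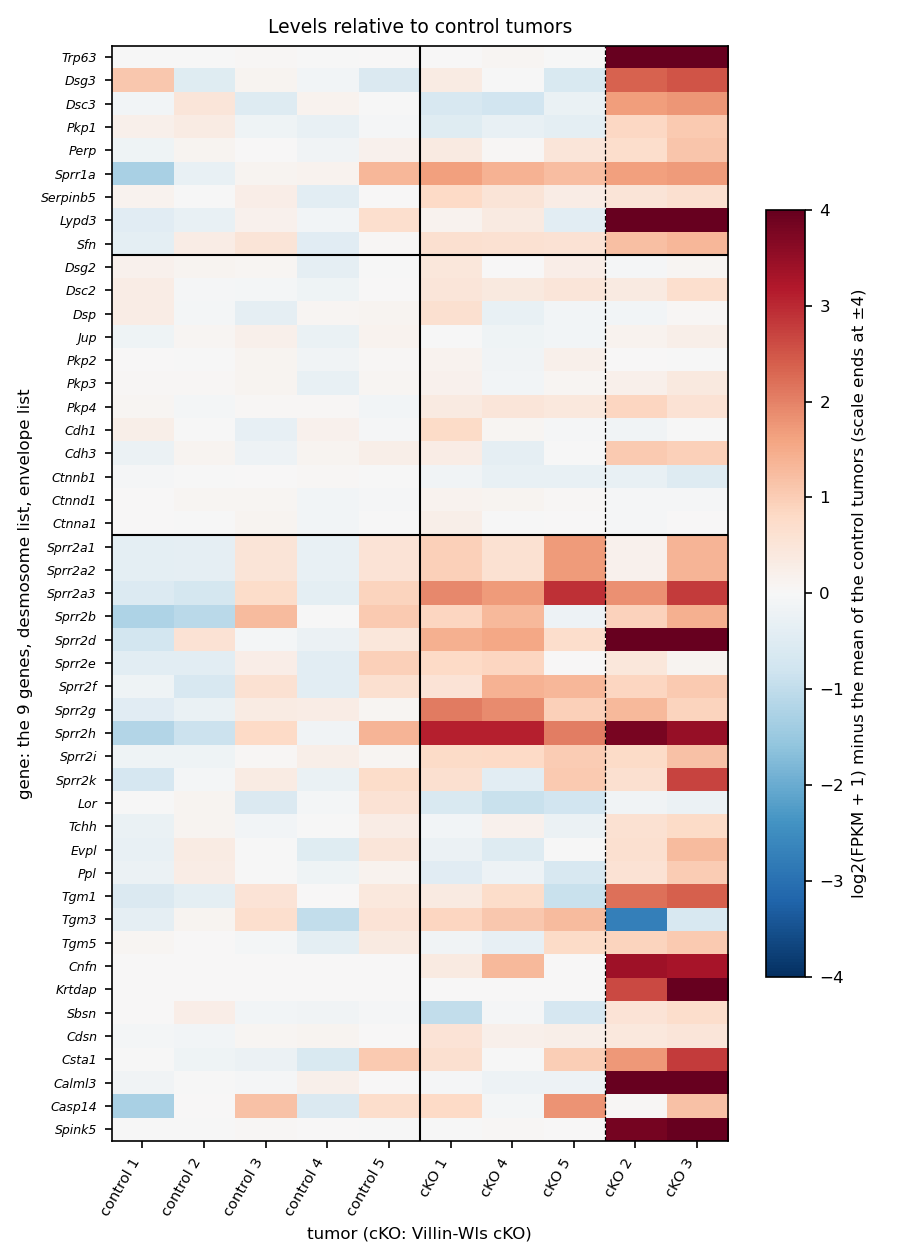
Log2(FPKM + 1) minus the mean of the 5 control tumors (color, ending at ±4) for the 9 genes and for listed desmosome and envelope genes (rows, separated by lines) in each tumor (columns, with Villin-Wls cKO tumors 2 and 3 on the right of the dashed line). Trp63, Lypd3, Calml3 and Spink5 are strongly red in the last 2 columns only, and Dsg2, Jup and Pkp2 are pale throughout. Sprr1a and Sprr2h are red in all 5 Villin-Wls cKO columns and also lie above the control mean in control tumor 5.

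Of the 16 tested transcription factors of the p63 family or of epithelial differentiation, 0 rose by limma and 1 fell, with 4 at an unadjusted p under 0.05. Dlx3, a homeobox factor of differentiating keratinocytes, fell from 12.0 ± 3.46 to 3.13 ± 1.01 FPKM (log2 difference -1.66, SE 0.23, limma adjusted p = 0.00156), and tumors 2 and 3, at 3.49 and 3.13 FPKM, were as low as the rest. Sox2 and Sox15, factors of squamous progenitors, were highest in the pair, at 5.75 and 7.47 FPKM against at most 2.96 FPKM, and at 4.97 and 4.82 FPKM against at most 0.262 FPKM. Zfp750, a p63 target that drives terminal differentiation, was 12.4 and 16.8 FPKM in the pair and at most 8.03 FPKM elsewhere. Klf4, Klf5, Ehf and Elf3, which columnar epithelium also uses, differed by 0.27 or less on the log2 scale. Without the pair 0 of 15 rose and 2 fell, where 3.95% and 2.69% of all genes did. Those that fell were Dlx3 and Grhl1 (limma adjusted p = 0.0406 for Grhl1). Grhl1, a factor of desmosomal cadherin expression, was 1.23 to 1.46 FPKM in tumors 1, 4 and 5 and 2.01 to 4.81 FPKM in controls.

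Of 14 basal layer and hemidesmosome genes, 0 rose by limma and 1 fell, with 3 at an unadjusted p under 0.05. Ngfr, a neurotrophin receptor, fell by 1.66 on the log2 scale (limma adjusted p = 0.0019). Krt5, the basal keratin paired with Krt14, was 469.5 and 669 FPKM in the pair and at most 0.315 FPKM elsewhere, but Krt14 itself was also found at 15.7 to 113 FPKM in controls and reached 262 and 243 FPKM in the pair. Krt15, another basal keratin, was 34.4 and 67.7 FPKM in the pair, and tumor 2 did not exceed control tumor 1 at 34.6 FPKM. With tumors 2 and 3 left out, 0 of 13 genes rose and 2 fell, where 3.95% and 2.69% of all genes did. Those that fell were Ngfr and Krt15 (log2 difference -2.03, limma adjusted p = 0.0487 for Krt15). Col17a1, the hemidesmosomal collagen, was 17.7 and 19.3 FPKM against at most 1.47 FPKM, while the integrins Itga6 and Itgb4, which simple epithelium also carries, differed by 0.10 and 0.084.

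The families of the remaining genes were followed from lists of paralogs. Of 14 genes of the Ly6/uPAR list, 4 rose and 2 fell, where Ly6a and Ly6c1 carry the same values and Agr2 is not of that family. Ly6a rose by a log2 difference of 1.76 (SE 0.16, limma adjusted p = 9.42e-05) with values identical to those of Ly6c1, and Agr2, a disulfide isomerase of secretory cells listed as a binding partner of Lypd3, rose by 1.94 (SE 0.41, limma adjusted p = 0.0142). Ly6d rose by 1.64 (SE 0.46, limma adjusted p = 0.045), which passed in 9 of 22 alternative settings. Lypd6 and Lypd6b, modulators of nicotinic receptors, fell by 1.20 and 1.01 (limma adjusted p = 0.0153 and 0.00705). Lypd2 and Slurp1 had the pattern of Lypd3, at 16.8 and 32.8 FPKM against at most 1.81 FPKM, and at 8.26 and 14.6 FPKM against at most 1.40 FPKM.

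Of 8 clade B serpins beside Serpinb5, 2 rose and 0 fell. Serpinb1a, an inhibitor of neutrophil proteases whose values Serpinb1c shared, rose by 0.92 (SE 0.17, limma adjusted p = 0.00632), and Serpinb9, the granzyme B inhibitor, by 0.97 (SE 0.22, limma adjusted p = 0.02). Serpinb2, which shared its values with Serpinb10, was 5.90 and 6.92 FPKM in the pair and at most 0.331 FPKM elsewhere. None of the 6 14-3-3 paralogs of Sfn, the 4 PMP22 relatives of Perp or the 15 p53 target genes passed by limma, with 2, 0 and 1 at an unadjusted p under 0.05. Cdkn1a, the cell cycle inhibitor p21, was 158.5 FPKM in controls and 147.8 FPKM in Villin-Wls cKO tumors as group means (limma adjusted p = 0.724). Over all lists, 13 of 115 genes rose and 5 fell, with Ly6a and Ly6c1 both counted. Without tumors 2 and 3, 9 of 104 rose and 5 fell, where 3.95% and 2.69% of all genes did, 6.63% together.

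The genes with the profile most like that of Trp63 over the 10 tumors, among 15344 candidates, were Spink5 (root mean square difference 0.11 on the log2 scale), the serine proteases Tmprss11b (0.15) and Tmprss11a (0.16), Olfm4 (0.19), Tmprss11d (0.26), 4833423E24Rik (0.30), the defensin Defb1 (0.31) and Col17a1 (0.38). Tmprss11a was 19.7 and 24.0 FPKM in the pair and at most 0.0679 FPKM elsewhere. Olfm4, a glycoprotein known from intestinal crypts, was 15.3 and 13.6 FPKM against at most 0.316 FPKM. The paper lists Olfm4 among the genes raised in Villin-Wls cKO tumors and proposes that these tumors are more differentiated. It bases this also on Muc2 and Muc4 RNA and on staining for Muc2 protein, which were not examined here. In the values given here, only tumors 2 and 3 exceeded 0.316 FPKM of Olfm4. The genes nearest to the mean profile of the 9 were Pvrl1 (0.10), Ankk1 (0.13), Pi15 (0.14), Clca2 (0.15), Vsnl1 (0.15), Gm13074 (0.16), Ifi202b (0.17) and Enpp3 (0.19). Of these nearest genes to Trp63 and to the mean, all but Col17a1 and Pvrl1 passed the filter on low levels only through the pair. They were thus bound to be high there. Such a profile was not particular to these names, since 151 genes tested had both values of the pair at 2 or more times the highest other value.

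Markers of other tissues were summed in each tumor beside these results. The 9 stratified squamous rows not held by another list (12 of 13 genes in the table) summed to 1048 and 1400 FPKM in tumors 2 and 3, 48.0 to 213 FPKM in controls and 14.7 to 57.2 FPKM in tumors 1, 4 and 5. The hair follicle, sebaceous gland and melanocyte list, of which 4 of 14 genes were in the table, summed to 23.4 and 15.4 FPKM in the pair and 14.5 to 41.3 FPKM in the other 8. Of the sums in the pair, 20.2 and 12.7 FPKM were Gsdma, whose values were identical to those of Gsdma2. Tchh was 1.08 and 1.31 FPKM in the pair against at most 0.674 FPKM. Krt35, Gsdma and Pmel of the pair lay within the range of the other 8. The skeletal muscle list, of which 2 of 10 were in the table and without Acta1 or Ckm, summed to 68.7 and 82.4 FPKM against 43.5 to 81.9 FPKM. Most of that sum was Tnni2, whose values were identical to those of Syt8, so that it may not measure muscle. On both lists the summed FPKM of the pair lay within the range of the other 8 tumors or, in tumor 3 for skeletal muscle, at its upper edge. Smooth muscle genes summed to 126 and 157 FPKM in the pair against 66.7 to 165 FPKM, and fibroblast genes to 1158 and 635 FPKM against 281 to 1018 FPKM. The gastric list (2 of 7 in the table) and the bladder and prostate list (3 of 6) summed to at most 3.57 and 15.7 FPKM in any tumor. The part of squamous tissue adjoining or within tumors 2 and 3 in the levels of the 9 genes was not tested.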

How the data were processed

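Messenger RNA of 10 macrodissected colon tumors was sequenced from stranded libraries. The authors used FastQC for read quality, TopHat 2.1.1 for mapping against GRCm38.p5, and Cufflinks 2.2.1 with Cuffdiff for quantification, all with default settings. Transcripts were left unmerged for the values of single tumors. The deposited values are FPKM per gene name. Whether quantification used strand is not given in the sources used here. Genes that share a locus can carry identical values, and a search among 100 low genes (under 0.3 FPKM) found no step of whole reads, so the depth is unknown and precision rests on the spread between 5 tumors a group.

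Groups and tumor numbers came from the sample titles. Genes whose mean FPKM was 0.5 or more were fitted with limma (3.58.1, R 4.3.3) on the log2(FPKM + 1) scale, two-sided, with an eBayes trend and without covariates. A call needed an adjusted p (Benjamini-Hochberg over all genes tested) under 0.05. It was tested on simulated data. Summaries, motif searches and figures used matplotlib 3.10.9, scipy 1.17.1, pandas 2.3.3 and numpy 2.4.6 under Python 3.11.15. Positions are from GENCODE M21, and promoter windows from RefSeq. The genes and the lists of related and marker genes were chosen with earlier results of these data known, and no set test was run. Named were all 10 genes, the transcription factor, desmosome, 14-3-3, PMP22 and Ly6/uPAR genes of the lists, from each other list the 4 called genes with the largest difference and the 4 with the highest FPKM, leading markers, and the 8 nearest profiles to Trp63 and to the mean of the genes. Wls, Xist, Eif2s3y and the other envelope, basal layer and serpin genes were named after their values were seen. Alternatives were other pseudocounts, scalings, filters, variance models, weights, a replicate block, identical rows counted once, and tumors left out.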

Additional observations from a re-analysis of the deposited data

How the results depend on the processing

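Without Villin-Wls cKO tumors 2 and 3, 1101 genes differed between the groups, in place of 1822. Leaving out 1 tumor in turn gave 1229 to 1986 genes overall and 14 to 20 in place of 18 related genes. All other settings stayed within 1.5 times of both counts. The fewest related genes were 12, with a mean FPKM of at least 5, which tests fewer genes. The total amount of RNA is not measured, and rescaling to the same FPKM sum moved the median of all genes to 0.097 from 0.0073. Each of the 9 genes kept the direction of its difference under all scalings and pseudocounts run. Leaving out tumors 2 and 3 turned Dsg3 (-0.10), Dsc3 (-0.55) and Pkp1 (-0.39) and brought Trp63 and Lypd3 to 0.019 and 0.023. Leaving out only tumor 2 or only tumor 3 also turned Pkp1, to -0.032 and -0.080. The same steps lowered Trp63 (1.66) to 1.05 and 1.04, Lypd3 (1.84) to 1.21 and 1.11, Dsg3 (0.91) to 0.55 and 0.51, and Dsc3 (0.36) to 0.031 and 0.0027. Single tumors of either group left out moved Dsc3 between 0.0027 and 0.64 and Pkp1 between -0.080 and 0.30, each by over 1.5 times without Villin-Wls cKO tumor 1 or 4, for Dsc3 also without control tumor 3, and for Pkp1 also without Villin-Wls cKO tumor 5 or control tumor 2 or 4. With a pseudocount of 0.1, Trp63 was 2.98 and Dsc3 0.16, rescaling to the same FPKM sum brought Pkp1 to 0.24, and the log2 ratio of mean FPKM + 1 was 2.92 for Trp63, 3.28 for Lypd3, 0.76 for Dsc3 and 0.28 for Pkp1. Perp (0.30 to 0.67), Sprr1a (1.19 to 1.85), Serpinb5 (0.44 to 0.65) and Sfn (0.61 to 1.00) kept their direction in all 16 settings. The limma calls of Sprr1a, Serpinb5 and Sfn were lost without tumors 2 and 3 together. Ctnnb1 lost its call without Villin-Wls cKO tumor 3 or control tumor 2, 4 or 5, Sprr2f without Villin-Wls cKO tumor 2, 3, 4 or 5 or control tumor 1, 2 or 4, and Ly6d without any single tumor other than Villin-Wls cKO tumor 5 and control tumor 5. Serpinb9 lost its call without Villin-Wls cKO tumor 3 or control tumor 2 or 5, and Serpinb9 and Lypd6 without tumors 2 and 3 together. The other 13 of the 18 related genes passed in all settings in which they were tested.

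The numbering of the tumors gave no pairing. Deviations of same-numbered tumors from their group means correlated at 0.064, -0.087, 0.063, 0.10 and 0.16. With the replicate number as a block, 1627 genes and 20 related genes passed, and Ctnnb1 and Ly6d were no longer past the threshold.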
